A study of Mus musculus with 7 samples.

Results

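Regions of 5-methylcytosine signal that lie in zinc finger protein genes were described across 6 methylated DNA immunoprecipitation (MeDIP-seq) libraries of cultured mouse hippocampal neurons. The members were all intervals of the deposited active regions, the merged set of intervals called in the libraries, that overlapped by at least 1 bp the body of an autosomal protein-coding gene whose RefSeq symbol starts with Zfp. There were 1001 such regions among 133337 active regions (0.751%). They lay in 258 of 391 Zfp genes, and 9 of them also lay in another gene. The genes were divided by their neighbours alone: 192 genes with at least 2 other Zfp genes within 200 kb were called clustered (216 regions) and the remaining 199 were called single (785 regions). The symbol rule also took Zfpm1, Zfpm2 and Zfpl1, whose names do not run Zfp and a number.

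The neurons came from hippocampi of C57BL/6J embryos at E18.5. They were kept for 11 days in vitro in neurobasal medium with AraC, a drug that stops dividing cells. One group of 3 libraries was untreated, and the other group of 3 had received 55 mM KCl, which depolarises neurons, for 4 h. No genotype other than the strain is given for either group, and the labels do not say whether the replicates of a group came from separate cultures, and the p-values therefore rest on library-to-library spread alone, which may be technical. The files hold methylated DNA and no transcript levels, so the labelled cell type was not checked against expressed markers.

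In MeDIP-seq an antibody against 5-methylcytosine pulls down methylated DNA fragments, and a region's summit height is the height of the read pile at its highest point. Most zinc finger genes named Zfp encode proteins with arrays of C2H2 fingers, each finger reading a few bases of DNA. Many also carry a KRAB domain, which recruits TRIM28 and, through it, the histone methyltransferase SETDB1, HP1 proteins and DNA methylation to transposons and to imprinted control regions. KRAB zinc finger genes multiplied by local duplication and often stand in clusters of similar copies. The fingers of such a gene usually lie together in a long last exon.

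The libraries differed in how much was called. They held 34834 to 93470 intervals and called 25.7% to 69.4% of the active regions, the lowest being KCl replicate 3 and the highest KCl replicate 1. The scaling of the heights is not given in the sources used here. The depth behind a height is therefore unknown, and no counting interval can be given. The smallest height listed is 6. Results that rest on KCl replicate 3 are given with and without it in the closing section.

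Promoter sequences come first, because few Zfp promoters carried a region and those few can be shown. RefSeq promoter windows of GRCm38.p6, each running from 250 bases before to 50 bases after an annotated start, were matched for 327 of the 391 Zfp genes (396 windows). Of these windows 5, in 4 genes, overlapped an active region (1.26%), against 606 of 19689 windows of other protein-coding genes (3.08%). The 250 bases before the start are printed below for these 5 windows, 5′ to 3′ on the strand of the gene, with each CpG, the dinucleotide that carries 5-methylcytosine, in capitals. At least 1 CpG, searched as the letters CG, which read the same on both strands, is in 99.7% of the Zfp windows and 95.5% of the other windows.
Zfp180, chr7:24081647-24081896, plus strand: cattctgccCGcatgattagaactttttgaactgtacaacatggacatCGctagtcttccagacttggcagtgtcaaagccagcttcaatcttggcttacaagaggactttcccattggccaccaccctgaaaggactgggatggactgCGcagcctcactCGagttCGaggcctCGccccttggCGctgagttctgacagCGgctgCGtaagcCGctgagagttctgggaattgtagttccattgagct
Zfp982, first start, chr4:147442864-147443113, plus strand: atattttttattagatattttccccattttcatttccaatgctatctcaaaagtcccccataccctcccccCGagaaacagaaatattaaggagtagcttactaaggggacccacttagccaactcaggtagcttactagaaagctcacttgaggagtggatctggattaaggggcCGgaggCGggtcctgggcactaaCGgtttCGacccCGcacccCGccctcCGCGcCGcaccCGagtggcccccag
Zfp982, second start, chr4:147492167-147492416, plus strand: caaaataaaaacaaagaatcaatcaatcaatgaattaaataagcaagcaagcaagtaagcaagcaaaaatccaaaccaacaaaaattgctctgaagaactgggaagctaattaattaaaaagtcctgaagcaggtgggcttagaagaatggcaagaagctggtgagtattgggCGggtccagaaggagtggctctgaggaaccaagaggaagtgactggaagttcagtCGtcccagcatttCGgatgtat
Zfp872, chr9:22187916-22188165, plus strand: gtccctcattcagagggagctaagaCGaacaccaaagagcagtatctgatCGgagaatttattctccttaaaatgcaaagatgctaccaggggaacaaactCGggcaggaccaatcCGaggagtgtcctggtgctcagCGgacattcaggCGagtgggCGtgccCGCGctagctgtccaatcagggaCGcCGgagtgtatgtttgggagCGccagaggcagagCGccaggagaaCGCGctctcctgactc
Zfp648, chr1:154200937-154201186, plus strand: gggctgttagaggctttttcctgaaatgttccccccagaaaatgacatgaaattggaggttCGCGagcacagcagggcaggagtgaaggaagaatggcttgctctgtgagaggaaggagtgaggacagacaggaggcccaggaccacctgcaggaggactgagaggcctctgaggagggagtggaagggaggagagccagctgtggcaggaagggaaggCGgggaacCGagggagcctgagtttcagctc

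These printed stretches hold 10 CpGs for Zfp180, 11 and 3 for the starts of Zfp982, 15 for Zfp872 and 4 for Zfp648. The Zfp180 region (chr7:24081794-24082424) was called in all 6 libraries. Its heights were 57, 60 and 41 in the untreated libraries and 61, 48 and 25 in the KCl libraries, and the groups overlapped. The other regions were low and called in some libraries only. The first Zfp982 region (chr4:147443075-147443381) had heights of 10 and 10 in untreated replicates 1 and 2 and 11 in KCl replicate 1. The second Zfp982 region (chr4:147492213-147492566) had heights of 15 and 18 in untreated replicates 2 and 3 and 13 in KCl replicate 3. The Zfp872 region (chr9:22188062-22188396) was called in untreated replicate 2 alone, at a height of 9. The Zfp648 region (chr1:154200920-154201231) was called in untreated replicate 1 and KCl replicate 1, at 16 and 13. Zfp648 was the only single gene among the 4.

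For contrast, 4 genes with some of the highest regions inside the gene had no active region over the promoter window.
Zfp13, chr17:23599488-23599737, minus strand: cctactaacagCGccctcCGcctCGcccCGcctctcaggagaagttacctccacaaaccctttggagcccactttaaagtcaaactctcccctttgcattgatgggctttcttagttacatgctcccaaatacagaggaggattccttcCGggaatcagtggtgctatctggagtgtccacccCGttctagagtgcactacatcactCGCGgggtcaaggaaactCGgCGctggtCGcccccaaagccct
Zfp768, chr7:127345315-127345564, minus strand: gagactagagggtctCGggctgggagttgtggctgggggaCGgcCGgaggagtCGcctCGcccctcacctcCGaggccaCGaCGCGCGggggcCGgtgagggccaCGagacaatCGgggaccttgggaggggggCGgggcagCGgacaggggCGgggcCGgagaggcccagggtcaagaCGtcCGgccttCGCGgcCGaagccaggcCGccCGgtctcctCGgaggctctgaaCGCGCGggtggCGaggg
Zfp42, chr8:43307010-43307259, minus strand: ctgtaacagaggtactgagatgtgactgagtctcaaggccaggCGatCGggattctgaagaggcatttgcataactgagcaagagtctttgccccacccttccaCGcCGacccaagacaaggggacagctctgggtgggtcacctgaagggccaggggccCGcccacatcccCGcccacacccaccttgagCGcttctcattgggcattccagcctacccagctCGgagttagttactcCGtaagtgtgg
Zfp775, chr6:48601757-48602006, plus strand: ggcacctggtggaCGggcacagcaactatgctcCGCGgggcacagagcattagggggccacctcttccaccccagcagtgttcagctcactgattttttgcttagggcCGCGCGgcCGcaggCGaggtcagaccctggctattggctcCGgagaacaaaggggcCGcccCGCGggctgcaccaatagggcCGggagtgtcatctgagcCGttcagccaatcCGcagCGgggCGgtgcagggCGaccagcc

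These hold 11 CpGs for Zfp13, 29 for Zfp768, 9 for Zfp42 and 18 for Zfp775. Among these few printed stretches the number of CpGs alone did not separate the promoters with a region from those without. Over all 300-base windows the median was 12 CpGs in the 5 Zfp windows with a region and 14 in the rest. In other protein-coding genes it was 8 with a region and 14 without. The median number of CpGs in a 300-base window was 11 in clustered Zfp genes, 17 in single Zfp genes and 14 in other protein-coding genes. Per library, 0.631% ± 0.265 (SD, n = 6 libraries) of Zfp windows carried a called region, against 2.10% ± 0.435 of other windows. The Zfp value rests on 1 to 4 windows in a library. By class it was 1.17% ± 0.531 in clustered and 0.158% ± 0.245 in single Zfp genes. The Zfp share was lower in 6 of 6 libraries, by 1.46 percentage points on average (exact sign-flip permutation test over libraries, two-sided, p = 0.031; p adjusted over 7 tests chosen after the data were seen 0.04375). A test of this kind says whether the libraries agree, not whether other genes of the class would. It flips the sign of each library on its own. With same-numbered untreated and KCl libraries flipped together as pairs, only 8 sign patterns remain, the smallest possible p is 0.25, and p was 0.25 for this and each of the other 11 sign-flip comparisons below, so none of them passes a threshold of 0.05 under the pairing.

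Within the genes, the last 20% of the body toward the 3′ end held the most regions. A region counted by its midpoint fell in the last 20% of the gene for 27.7% ± 0.511 of called regions in Zfp genes and for 26.1% ± 0.745 in other protein-coding genes (mean ± SD over 6 libraries, genes with a known strand). The share was higher in Zfp genes in 6 of 6 libraries, with a mean difference of 1.68 percentage points (exact sign-flip permutation test, p = 0.031, adjusted p over 7 tests 0.04375). In KCl replicate 3 the difference was only 0.068 points. In that library the fourth 20% of Zfp genes held 27.8% of the regions and the last 20% held 27.3%. In genes of 10 to 40 kb the last 20% held 31.5% ± 1.01 of the regions in Zfp genes and 27.2% ± 0.81 of those in other genes. This difference of 4.33 points was also seen in 6 of 6 libraries (exact sign-flip permutation test, p = 0.031, adjusted p 0.04375). With every library cut to its highest 34834 intervals, the difference over genes of all lengths was 0.878 points and no longer had the same sign in every library (exact sign-flip permutation test, p = 0.28125).

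**Figure D1:**
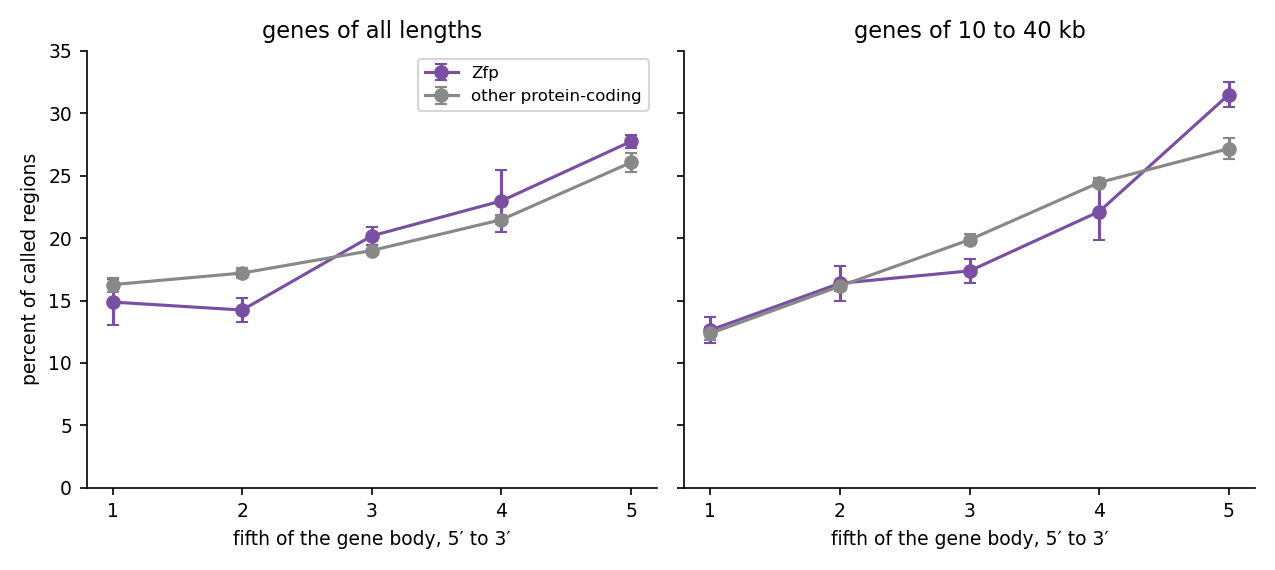
Percent of called regions (y axis) in each 20% of the gene body from the 5′ to the 3′ end (x axis) for Zfp and other protein-coding genes, in genes of all lengths and in genes of 10 to 40 kb; points are means and bars the SD over 6 libraries. The last 20% is the fullest in both gene classes, and in genes of 10 to 40 kb it holds 31.5% in Zfp genes against 27.2% in the others.

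At the ends of the gene the comparison with other genes depended on class and on how regions were counted. Within 1 kb of the 3′ end, 13.4% ± 2.50 of Zfp genes had a called region, against 11.6% ± 3.04 of other genes (higher in 6 of 6 libraries, exact sign-flip permutation p = 0.031, adjusted p 0.04375). By class the share was 10.1% ± 1.72 in clustered genes, below that of other genes, and 17.0% ± 3.57 in single genes. Over the merged regions of all libraries the order was the other way, with 17.7% of Zfp genes and 18.8% of other genes. Within 1 kb of the 5′ end the shares were 4.84% ± 1.40 and 6.15% ± 1.66 (lower in 6 of 6 libraries, exact sign-flip permutation p = 0.031, adjusted p 0.04375). The 5′ difference went from 1.30 points lower to 0.0404 points lower when each library was cut to its highest 34834 intervals (exact sign-flip permutation p = 0.71875). The share in the last 20% did not differ between clustered and single genes in the same direction in every library: the mean difference was 2.44 points over all lengths (5 of 6 libraries higher, exact sign-flip permutation p = 0.0625) and 0.857 points in genes of 10 to 40 kb (3 of 6 libraries higher, p = 0.4375). With each library cut to its highest 34834 intervals these differences were 5.34 points (exact sign-flip permutation p = 0.0625) and 4.33 points (p = 0.125).

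In these 6 libraries a smaller share of clustered than of single Zfp genes held a region, and the regions in clustered genes averaged higher, but neither difference passed after adjustment and both were smaller in genes of like length. Over the merged regions, 111 of 192 clustered genes (57.8%) and 147 of 199 single genes (73.9%) had at least 1 region, against 64.5% of 20274 other protein-coding genes. Per library, 48.4%, 51.0% and 45.8% of clustered genes had a called region in the untreated libraries and 49.0%, 42.2% and 33.9% in the KCl libraries. For single genes these shares were 60.3%, 64.8% and 58.3% untreated and 62.8%, 57.3% and 44.7% with KCl. The clustered share was lower in each of the 6 libraries, by 13.0 ± 1.54 percentage points (SD). The exact sign-flip permutation test, two-sided, gave p = 0.031, the smallest that 6 libraries allow. Adjusted over the 8 tests of the design, this sign-flip p was 0.05, which is not under the threshold of 0.05. These 8 tests were chosen with earlier results of these data known. In genes of 10 to 40 kb the share was 6.57 points lower in clustered genes, again in 6 of 6 libraries.

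Clustered genes had 36.7, 41.8 and 33.9 called regions per Mb of gene body in the untreated libraries and 37.6, 30.4 and 23.2 in the KCl libraries. Single genes had 58.5, 56.7 and 45.6 per Mb untreated and 60.0, 40.8 and 24.3 with KCl. Each library was lower in clustered genes, with a mean log2 ratio of -0.45 ± 0.22 (a ratio of 0.732), but in KCl replicate 3, the library with the fewest calls, the log2 ratio was only -0.07 (exact sign-flip permutation test, p = 0.031, adjusted p 0.05). When each library was cut to its highest 34834 intervals the log2 ratio was -0.09 and not of one sign (exact sign-flip permutation p = 0.0625). It was -0.30 in genes of 10 to 40 kb and -0.28 without the 10 longest Zfp genes, 8 of which are single, each lower in 6 of 6 libraries. Olfactory receptor genes (Olfr), another family that stands in clusters, had 51.0 regions per Mb over all libraries together, where clustered Zfp genes had 50.1 and single Zfp genes 84.9. Olfr genes are short, with a median of 0.95 kb, and only 8.79% of 1104 had a region.

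Whether Zfp genes as a whole were denser in regions than other genes depended on gene length. Per library, Zfp genes had 51.6, 51.9 and 41.9 called regions per Mb untreated and 52.9, 37.5 and 24.0 with KCl. Other protein-coding genes had 45.3, 47.0 and 38.0 untreated and 48.6, 33.2 and 19.2 with KCl. Zfp genes were higher in 6 of 6 libraries, with a mean log2 ratio of 0.18 ± 0.07, or 1.13 times (exact sign-flip permutation p = 0.031, adjusted p 0.05). With each library cut to its highest 34834 intervals the log2 ratio was 0.29. The 10 longest Zfp genes, from 229.5 kb upward and 8 of them single, held 350 of the 1001 regions. Without them, and with the other protein-coding genes left uncut, the log2 ratio was 0.06, of either sign among the libraries (exact sign-flip permutation p = 0.34375). In genes of 10 to 40 kb it turned to -0.55, with 36.0 regions per Mb in Zfp genes against 53.5 in other genes (lower in 6 of 6 libraries, exact sign-flip permutation p = 0.031).

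**Figure D2:**
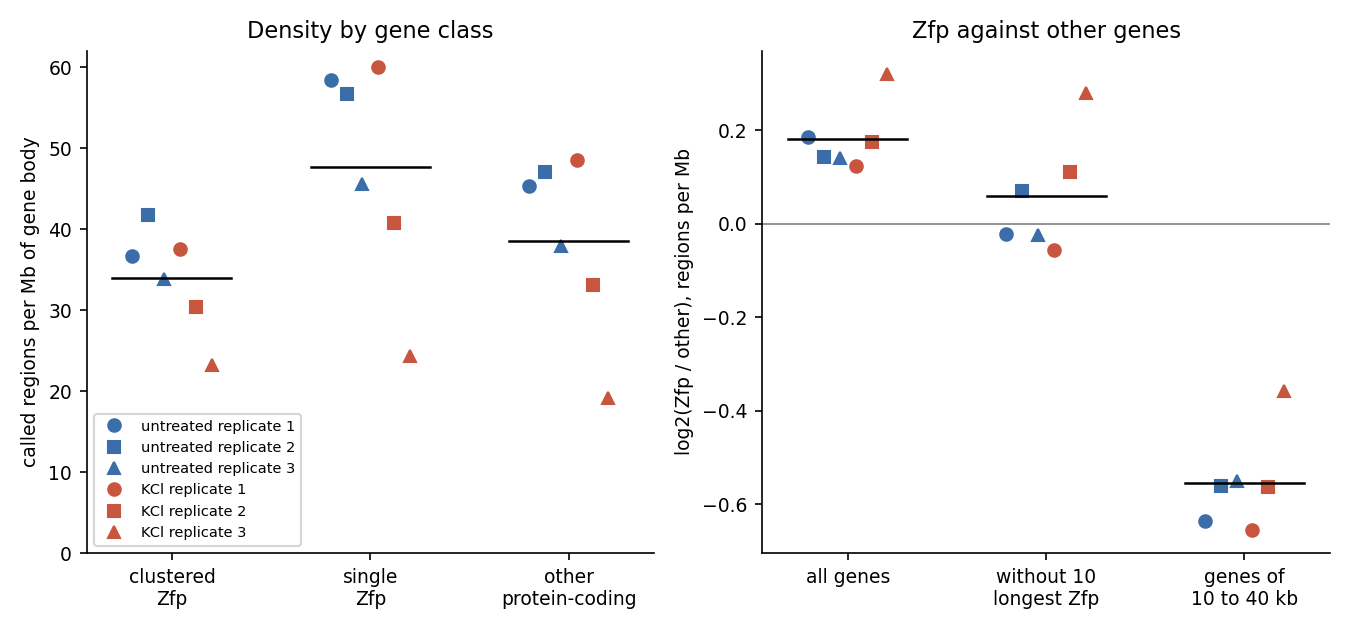
Left, called regions per Mb of gene body (y axis) in each of the 6 libraries for clustered Zfp, single Zfp and other protein-coding genes; right, the log2 ratio of Zfp to other genes for all genes, without the 10 longest Zfp genes and for genes of 10 to 40 kb. Black lines are means over libraries. KCl replicate 3 is lowest in each class on the left, and the log2 ratio on the right goes from 0.18 to -0.55.

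The genes with the most regions were long single genes. Zfp536, a repressor of neuronal differentiation, had 82 regions in 456 kb (chr7:37318023-37774039), of which 10 were called in all 6 libraries. Zfp423, a transcription factor of cerebellar and fat cell precursors, had 53 in 300.2 kb, and Zfp521, its close relative with a role in neural differentiation, had 53 in 286 kb. Zfp407 had 50 and Zfp469 had 31. In the libraries Zfp536 had 61, 46 and 45 called regions untreated and 60, 35 and 17 with KCl, lowest in the library with the fewest calls. Some long genes had few regions. Zfp804b had 8 in 575 kb (13.9 per Mb). Zfp804a, a brain gene at a locus linked to schizophrenia, had 2 in 210 kb (9.54 per Mb), whereas Zfp536 had 180 per Mb. The part of gene length in these counts was not tested. Of the 8 regions of Zfp804b only 1 was called in all 6 libraries (chr5:7179202-7179654), at 20, 14 and 9 untreated and 14, 11 and 12 with KCl.

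Among clustered genes the counts were lower. Zfp978 had 16 regions in 267 kb, 13 of them called in all 6 libraries. Zfp993 had 7 in 479 kb, Zfp607b had 6 in 31.8 kb, Zfp12 had 5 in 13.7 kb and Zfp982 had 5 in 73.0 kb. Zfp978, Zfp982 and Zfp993 belong to 1 cluster on chromosome 4. In Zfp978 13 of 16 regions recurred in every library, where in Zfp536 10 of 82 did.

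The clusters differed widely from each other. Runs of Zfp genes with gaps of at most 200 kb gave 29 clusters of 3 or more genes, with 0 to 262 regions per Mb, and 3 of them had no region. The 6 largest, given in place of 5 because 3 clusters tied at 12 genes, hold 92 genes. The largest (chr13:67038594-67827000, Zfp712 to Zfp273) has 23 genes but only 10 regions in 8 of them, 22.5 per Mb, and 1 region called in all 6 libraries. A cluster on chromosome 17 (chr17:21383707-22456689, Zfp677 to Zfp946) has 18 genes and 7 regions, 15.3 per Mb. The other chromosome 17 cluster (chr17:32765496-33394637, Zfp871 to Zfp101) has 12 genes and 6 regions, 29.2 per Mb.

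The 2 large clusters on chromosome 7 were several times denser. The one from Zfp84 to Zfp146 (chr7:29768552-30169775) has 15 genes and 34 regions, 133 per Mb, with 13 genes carrying at least 1. Its density per library was 93.6, 109 and 70.2 per Mb untreated and 81.9, 78.0 and 46.8 with KCl. The one from Zfp180 to Zfp575 (chr7:24081877-24587840) has 12 genes and 17 regions, 107 per Mb, with 69.5, 82.1 and 75.8 per Mb untreated and 75.8, 50.5 and 44.2 with KCl. In every library both lay above each of the other 4 large clusters, whose highest value was 31.2 per Mb. Of the 192 clustered genes, 70 are on chromosome 7.

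**Figure D3:**
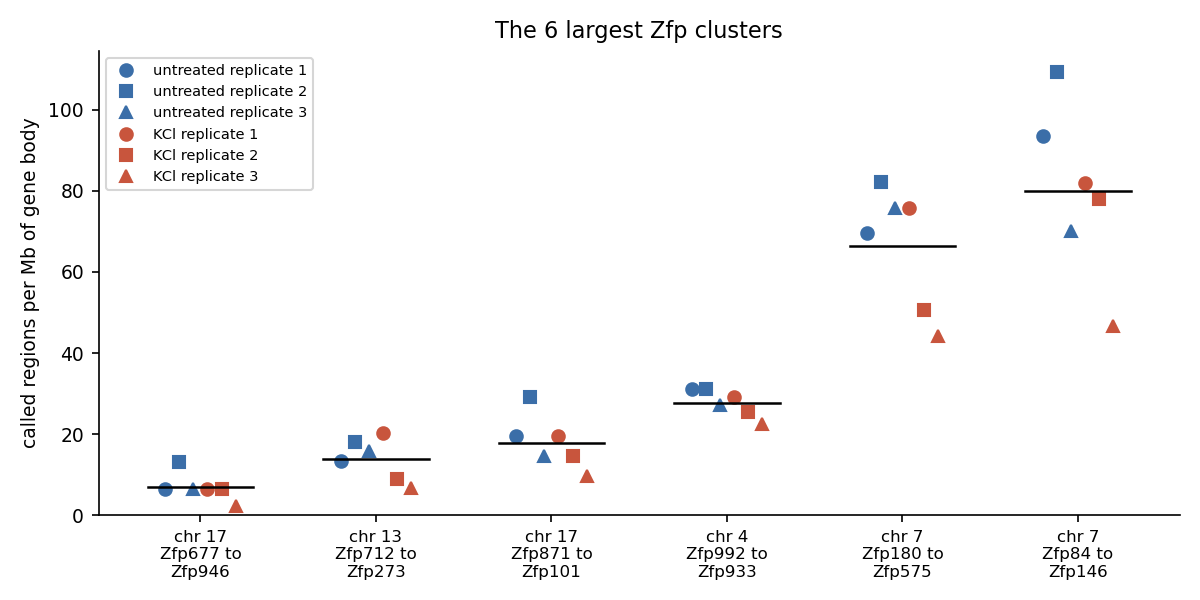
Called regions per Mb of gene body (y axis) in each of the 6 libraries for the 6 largest Zfp clusters, named by chromosome and by first and last gene (x axis) and ordered by density over all libraries; black lines are means. Both chromosome 7 clusters lie above the other 4 in every library, and within a cluster KCl replicate 3 is the lowest library.

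The chromosome 4 cluster (chr4:146449030-147849126, Zfp992 to Zfp933) was sparse but recurrent. It has 12 genes and 35 regions, 34.1 per Mb, and 22 of the 35 were called in all 6 libraries, with mean heights of 13.3 to 127. Copies in some of these clusters resemble each other, and where reads that match several copies were placed is not given in the sources used here. As a measure of likeness, each promoter window was aligned to its closest other Zfp window and the identity taken as the share of 300 bases left after the edits needed. The median closest identity was 78.7% in the chromosome 4 cluster (9 promoters, range 48.7% to 94.7%) and 64.5% in the chromosome 13 cluster. It was 50.3% (range 49.3% to 52.7%) and 51.0% (range 48.3% to 55.3%) in the chromosome 7 clusters. In the sparse chromosome 17 clusters it was 56.3% (Zfp677 to Zfp946, range 48.7% to 94.7%) and 53.3% (Zfp871 to Zfp101, range 50.7% to 100%). Over single genes it was 51.0% (range 47.0% to 100%). As the lowest value of any Zfp window was 47.0%, the chromosome 7 promoters showed little likeness by this measure. The part of read placement in these heights and counts was not tested.

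Of the 216 regions in clustered genes 87 (40.3%) were called in all 6 libraries, against 174 of 785 (22.2%) in single genes and 22.3% in other protein-coding genes. Over all active regions 20.5% were called in all 6. The contrast was smaller in genes of 10 to 40 kb with a known strand, counting each region once per gene. There 47 of 137 in clustered, 43 of 138 in single and 2986 of 11521 in other protein-coding genes were called in all 6. The chromosome 4 cluster held 22 of the 87. Regions called in a single library made up 19.0% of the clustered and 26.2% of the single set. The median length was 420.5 bp in clustered and 367 bp in single genes.

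Among regions called in all 6 libraries the median of the mean heights was 28.3 in clustered, 25.3 in single and 24.5 in other protein-coding genes. On the log2(height + 1) scale, the clustered regions averaged 5.18, 5.33 and 4.94 in the untreated libraries and 5.29, 5.00 and 4.53 in the KCl libraries. The single regions averaged 4.96, 5.10 and 4.75 untreated and 5.09, 4.71 and 4.30 with KCl. Clustered regions were higher in each of the 6 libraries, by 0.23 ± 0.03 (SD; exact sign-flip permutation p = 0.031, adjusted p 0.05). In genes of 10 to 40 kb the difference was 0.04, and 1 of 6 libraries, KCl replicate 1, was at -0.002 (exact sign-flip permutation p = 0.0625). Zfp regions as a whole were higher than those of other protein-coding genes by 0.16 ± 0.02 in 6 of 6 libraries (exact sign-flip permutation p = 0.031, adjusted p 0.05).

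**Figure D4:**
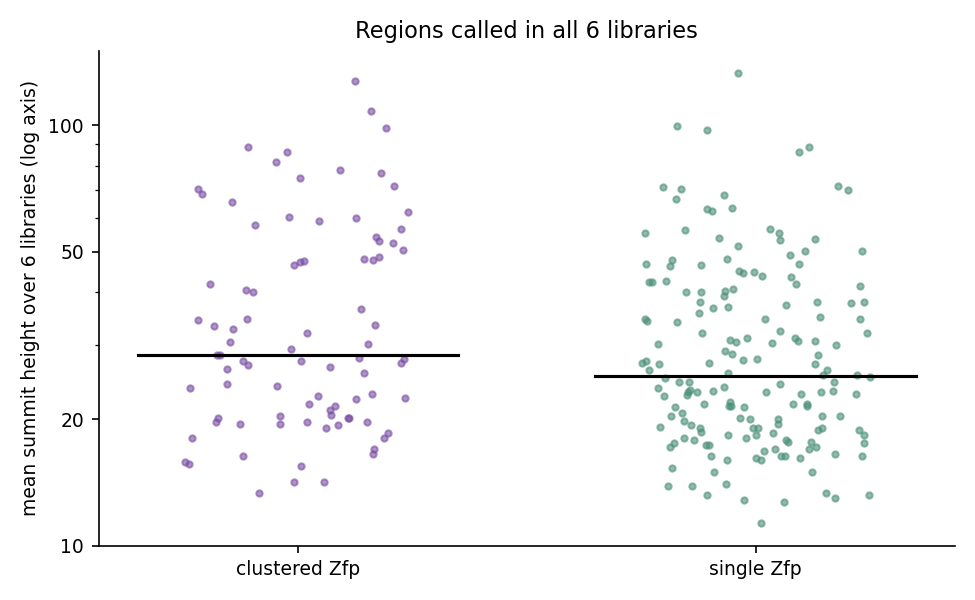
Mean summit height over 6 libraries (y axis, log scale) of each region called in all 6, for 87 regions in clustered and 174 in single Zfp genes; black lines are medians and the sideways spread of points carries no value. The medians are 28.3 and 25.3, and the ranges overlap almost wholly, with the highest region at 127 in the clustered and 133 in the single class.

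Named regions show how high the members reached. The highest of all was in the single gene Zfp13 (chr17:23575728-23577023), 22732 bp from the 5′ end of the gene, at 129, 160 and 110 untreated and 167, 130 and 101 with KCl. The highest clustered region was in Zfp978 (chr4:147219332-147220058), at 141, 160 and 105 untreated and 159, 108 and 90 with KCl. In both, KCl replicate 1 stood near untreated replicate 2, KCl replicate 3 was the lowest of all, and the groups overlapped.

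In smaller clusters on chromosome 7 the region of Zfp865 (chr7:5029238-5032202), 2965 bp long, stood at 117, 140 and 87 untreated and 138, 102 and 63 with KCl. That of Zfp768 (chr7:127343014-127344299), whose promoter is printed above, lay 1015 bp from the 5′ end and 219 bp from the 3′ end of the gene, at 99, 123 and 86 untreated and 119, 99 and 66 with KCl. The promoter window of Zfp768, with its 29 CpGs before the start, carried no region in any library. The other clustered regions among the highest 10 were in Zfp974 (mean height 88.7), Zfp993 (86.2), Zfp978 again (81.5), Zfp787 (78.0), Zfp180 (76.8), Zfp579 (74.8) and Zfp658 (71.7). The second Zfp180 region (chr7:24105107-24106254) lay 92.1% of the way along the gene and was higher than its promoter region, at 81, 101 and 65 untreated and 89, 70 and 55 with KCl.

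Among single genes the next highest were in Zfp469, the mouse relative of a cornea disease gene, with a mean of 99.7, and in Zfp423 with means of 97.2 and 71.2. Zfp775 (88.8), Zfp516, a factor of brown fat (86.3), Zfp467 (71.7), Zfp42 (70.7), Zfp618 (70.0) and Zfp513 (68.2) followed. Zfp42, the pluripotency marker Rex1, had its high region (chr8:43295483-43296310) 416 bp from the 3′ end, at 71, 95 and 68 untreated and 79, 67 and 44 with KCl. A lower region of Zfp42 (chr8:43305615-43306017), 992 bp from the 5′ end, was called in 4 libraries, at 15, 19 and 19 untreated and 21 in KCl replicate 1. Among the 15 of these 20 highest regions whose gene has a known strand, those of Zfp787, Zfp42, Zfp775 and Zfp180 lay beyond 90% of the gene.

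Some listed genes known for silencing by zinc finger proteins are given by their values. Zfp57, which binds the methylated allele of imprinted control regions, had 1 region, called in untreated replicate 2 alone at a height of 10. Zfp445, which shares that role, had 1 low region, with heights of 11 and 11 in untreated replicates 2 and 3 and of 14 and 10 in KCl replicates 1 and 2. Zfp809, which silences proviral DNA, had 1 region in KCl replicate 2 at 10. Zfp568, a repressor of a placental Igf2 promoter, had 4 regions and none called in all 6 libraries. Per length, Zfp568 had 90.2 regions per Mb, where all Zfp genes together had 73.8. Zfp57 had 105, Zfp445 26.4 and Zfp809 35.1, but each of these values rests on 1 region. Zfp57 is only 9.57 kb long, so its 1 region, called in 1 library, is enough to place it above 73.8. The highest region of Zfp568 stood at 25, 28 and 23 untreated and at 26 and 25 in KCl replicates 1 and 2.

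Some genes of other roles had 1 region called in every library. Zfp541, a germ cell gene, had its region over the annotated start of the gene (chr7:16061312-16062450), at 64, 65 and 50 untreated and 71, 53 and 29 with KCl. The RefSeq promoter table holds another start of Zfp541, farther inside, where no region lay. Zfp36, the mRNA decay factor tristetraprolin, had 27, 26 and 23 untreated and 30, 21 and 15 with KCl. Zfp503, a developmental repressor, had 42, 47 and 40 untreated and 49, 32 and 30 with KCl, and Zfp750, a gene of skin cell differentiation, had 24, 32 and 26 untreated and 34, 24 and 14 with KCl. In each of these the library with the fewest calls was the lowest and KCl replicate 1 the highest.

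Of the 30 Zfp genes listed for their known roles, 27 had a region, 336 in all. Zfp281, Zfp37 and Zfp36l1 had none. Zfp335, needed for neural progenitors, had 5 regions in 20.7 kb. Zfpm1, a cofactor of GATA factors, had 13 in 56.0 kb, and Zfpm2, its relative, had 24 in 450 kb. The genes of the list not yet described ranged from 1 region, as in Zfp292 (79.9 kb) and Zfp703, to 12 in Zfp462. Between them lay Zfp217 with 6, Zfp609 with 5, and Zfp143, Zfp148, Zfp365 and Zfp36l2 with 2 each.

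The partners of KRAB zinc finger proteins were listed as the rest of the pathway. Of 20 genes, 16 had a region, 65 in all, at 72.7 per Mb. Of all protein-coding genes other than Zfp, 64.5% had a region, at 69.5 per Mb. The median length was 34.1 kb in the list and 17.5 kb in those genes. The adaptor Trim28 itself had no region, nor had Cbx3, which encodes an HP1 protein, Resf1 or Suv39h2. The histone methyltransferase gene Setdb1 had 1 and its cofactor gene Atf7ip had 5. The DNA methyltransferase genes Dnmt1, Dnmt3a and Dnmt3b had 7, 10 and 4, and the remodeller genes Chd3 and Chd4 had 10 and 7. The highest region of Dnmt1 (chr9:20909407-20909977) stood at 28, 36 and 31 untreated and 28, 16 and 21 with KCl.

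No Zfp region changed with KCl by the test. Heights were compared with limma on log2(height + 1) for 20537 regions called in all 6 libraries and at or above the 25th percentile of mean height, 208 of them in Zfp genes. At an adjusted p under 0.05, 0 of the 208 were higher and 0 lower (0% of all regions tested), and the lowest adjusted p of a Zfp region was 0.932. Only 2 had an unadjusted p under 0.05, both lower (1.12% of all regions tested). With each library centred on its median there were 6 higher (1.97% of all regions) and 3 lower (1.67%), again with 0 at an adjusted p under 0.05.

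All regions together shifted by -0.25 on the log2 scale, so changes are given relative to that median. Of the 208 Zfp regions, 110 lay above it and 98 below (50% of all regions above by construction), with a median relative change of 0.01. Clustered regions had 45 above and 30 below with a median of 0.03, and single regions 65 and 68 with a median of -0.003. Over the Zfp regions called in all 6 libraries the mean log2(height + 1) was 5.01 ± 0.18 untreated and 4.78 ± 0.39 with KCl (3 libraries each), a difference of -0.23 within the spread (exact permutation test, two-sided, p = 0.4; the smallest 3 against 3 allow is 0.1). With heights divided by each library's median it was 0.03 (exact permutation p = 0.5). The share of a library's called regions that lay in Zfp genes was 0.807% ± 0.0147 untreated and 0.857% ± 0.0874 with KCl (exact permutation p = 0.5). The difference between clustered and single heights was 0.21 ± 0.02 untreated and 0.24 ± 0.04 with KCl, also within the spread (exact permutation p = 0.5).

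**Figure D5:**
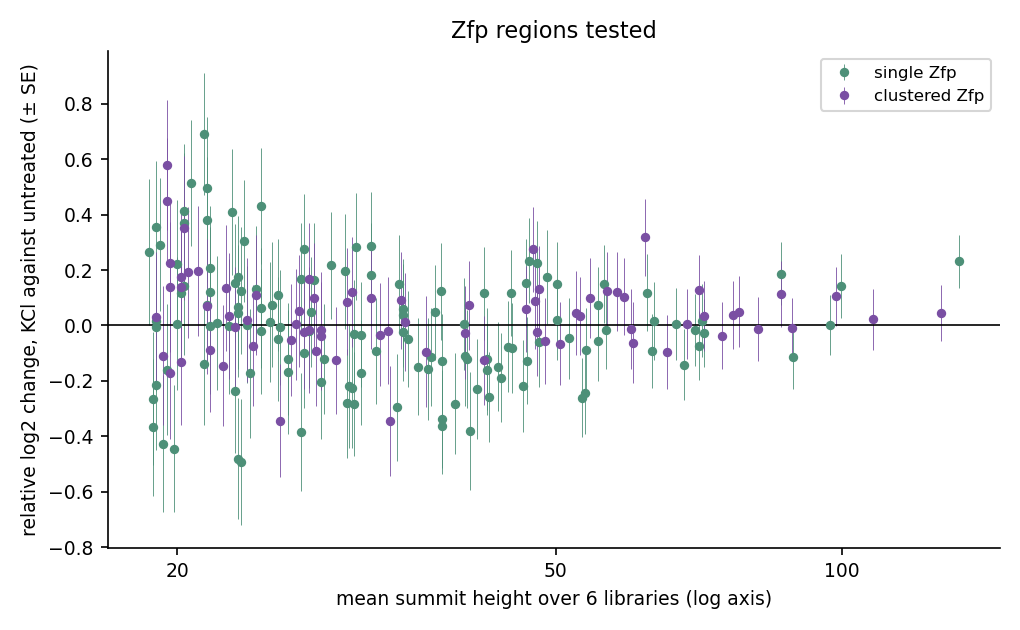
Log2 change with KCl relative to the median of all tested regions (y axis, ± SE from limma with centred libraries) against mean summit height over 6 libraries (x axis, log scale) for the 208 Zfp regions tested. Points lie on both sides of 0 in both classes, and the spread is wider among low regions, from -0.49 to 0.69.

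The Zfp regions at the low end of the p-values, 5 on each side, are described by their heights, and none of them passed. They were ranked by the p of the fit to heights as deposited, and their side is that of the change relative to the median. Zfp330 (chr8:82771592-82772104) had heights of 17, 20 and 16 untreated and 31, 27 and 17 with KCl. KCl replicates 1 and 2 lay above every untreated library and KCl replicate 3 among them. Its log2 change was 0.44 (SE 0.36, limma adjusted p 0.932) as deposited and 0.70 (SE 0.22, limma adjusted p 1.00) with centred libraries.

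Next on the higher side came Zfp764 (relative change 0.58), Zfp39 (0.51) and Zfp385b (0.50, and 0.29 to 0.75 with a library left out). The Zfp423 region with the highest mean also met the ranking rule, but its p belongs to a lower height with KCl (mean 105 untreated, 89.3 with KCl), and its relative change was 0.003. By the centred fit, regions of Zfp13 (relative change 0.23) and Zfp978 (chr4:147267282-147267799, 0.32) ranked ahead of Zfp39 and Zfp385b.

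On the lower side Zfp521 (chr18:13739306-13739770) had 36, 23 and 29 untreated and 21, 19 and 12 with KCl, and its groups did not overlap. Its log2 change was -0.74 (SE 0.36, limma adjusted p 0.932) as deposited and -0.49 (SE 0.23, limma adjusted p 1.00) with centred libraries. Zfp366, with 32, 27 and 27 untreated and 24, 18 and 11 with KCl, had a relative change of -0.48. Zfp536 (-0.45), Zfpm1 (-0.43) and Zfp236 (-0.38) followed. With a library left out the relative change ran from -0.64 to -0.17 for Zfpm1, from -0.58 to -0.23 for Zfp236 and from -0.73 to -0.34 for Zfp521.

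Counts of regions whose groups do not overlap stayed near the background. Every KCl height lay below every untreated height in 13 of 261 Zfp regions called in all 6 libraries (4.66% of all such regions), and above in 0 (0.124%). The 13 included Zfp64 (66, 63 and 59 untreated, 52, 45 and 37 with KCl) and Zfp395 (46, 48 and 43 untreated, 36, 27 and 28 with KCl), chosen here after their values were seen. Another 10 of the 1001 regions had a call in each untreated library and in none of the KCl libraries (1.01% of all active regions), and 0 had the opposite pattern (0.0367%). All 10 were low regions, with heights of at most 19. With each library cut to its highest 34834 intervals, 2 were called in the untreated libraries alone (0.192%) and 2 in the KCl libraries alone (0.173%). Of the list of known genes 47 regions were tested and 0 passed, with 18 above and 29 below the median of all regions and a median relative change of -0.06. Of the partners' regions 13 were tested and 0 passed, with 8 above and 5 below and a median of 0.03.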

How the data were processed

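The 3 untreated and 3 KCl MeDIP libraries were analysed; the pooled input was not analysed here. The submitters' processing notes name BWA, SICER and the build mm10; no source used here gives their versions, settings or roles, or how heights were scaled. Per the file headers, the authors deposited for each library a track of intervals and a track of summits with whole-number heights, and a track of merged active regions. The heights are other than counts of reads in a region, so no count model was used, and the files give no sequencing depth.

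Regions were assigned by an overlap of at least 1 bp with gene bodies of the RefSeq GRCm38 table; 327 of 391 Zfp genes had a strand, from the promoter table of GRCm38.p6. A region's height in a library was the highest summit among that library's intervals that overlapped the region. A library without a call has no value. Heights were compared with limma 3.58.1 (R 4.3.3, intensity trend, Benjamini-Hochberg adjustment over 20537 regions) on log2(height + 1), on regions called in all 6 libraries with a mean height of at least 18.7, the 25th percentile. The design had called this unit a signal; the file column also holds names, and the test was kept. The fit was also run on simulated heights drawn with an assumed spread. That run does not give the size of change that could be detected in these libraries. Single values per library were compared by exact permutation tests and, within libraries, exact sign-flip tests over 64 sign patterns (Python 3.11.15, numpy 2.4.6).

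Named regions were the 10 highest clustered and single regions called in all 6 libraries, the 5 with the lowest limma p in each direction, the 5 genes per class with the most regions, the largest clusters, and lists of 30 Zfp genes and 20 partner genes. Members, lists and tests were chosen with earlier results of these data known. Same-numbered libraries were checked for shared deviations from the group means: correlations over all regions called in all 6 were 0.110, 0.113 and 0.152 for the numbers 1, 2 and 3, and -0.0887 to -0.0189 between different numbers, so the numbers were treated as pairs; what a number marks is not in the labels. Alternatives were other pseudocounts, filters, scalings, cluster distances, gene lengths, equal numbers of intervals, the replicate block and each library left out in turn. No genome sequence was used here.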

Additional observations from a re-analysis of the deposited data

How the results depend on the processing

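Fitted with a replicate block, limma called 0 Zfp regions (lowest adjusted p 0.857, and 0.833 with median centring), and the mean Zfp height difference was -0.23 with exact p 0.5. Signs were also flipped by same-numbered pair, a replicate block chosen after the data were seen. Exact p was then 0.25, the smallest possible, and no sign-flip result passed. Clustered minus single height was 0.228, the log2 density ratio -0.451 and the share of genes -13.0 points. For Zfp against other genes the log2 density ratio was 0.182 and the height difference 0.163. The last 20% of the gene was at 1.68 points (4.33 in genes of 10 to 40 kb), promoters -1.46, 5′ ends -1.30 and 3′ ends 1.81. The block changed no other call. Other pseudocounts and filters also gave 0 calls. Leaving out each library in turn gave 0 calls, with lowest adjusted p-values of 0.177 to 1.00. Without KCl replicate 1, 29 of 212 Zfp regions tested had an unadjusted limma p under 0.05, all lower (20.8% of all regions tested). The median change of all regions was then -0.46. With 5 libraries the smallest sign-flip p is 0.0625, so leaving one out removes each such call by construction. The directions held: clustered minus single height 0.22 to 0.23, log2 density ratio of clustered to single -0.53 (without KCl replicate 3) to -0.41, share of genes -13.4 to -12.6 points, log2 density ratio of Zfp to other genes 0.15 (without KCl replicate 3) to 0.19, and Zfp minus other height 0.16 to 0.17. The difference in the last 20% of the gene ran from 1.38 to 2.01 points over all lengths and 3.94 to 4.93 in genes of 10 to 40 kb; promoter windows from -1.59 to -1.42, 5′ ends from -1.48 to -1.19 and 3′ ends from 1.53 to 2.00; the last 20% of clustered minus single genes from 2.11 to 2.94 and from 0.160 to 1.61. The KCl difference in mean Zfp height ran from -0.42 to -0.03, the latter without KCl replicate 3; in the share of calls from 0.00395 to 0.0909; and in clustered minus single height from 0.01 to 0.04.

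Scaling by library medians turned the uncalled KCl difference in mean Zfp height to 0.0344 (exact permutation p = 0.5). Equal numbers of intervals took the log2 density ratio of Zfp to other genes to 0.293. That of clustered to single genes went to -0.0857 (exact sign-flip p = 0.0625). The difference in the last 20% went to 0.878 points (exact sign-flip p = 0.28125) and the 5′ difference to -0.0404 points (exact sign-flip p = 0.71875). A cluster distance of 500 kb gave a log2 density ratio of clustered to single genes of -0.36 (exact sign-flip p = 0.0625), with KCl replicate 3 at 0.07. Genes of 10 to 40 kb, chosen after the data were seen, gave a clustered minus single height difference of 0.0390 (exact sign-flip p = 0.0625). They reversed the log2 density ratio of Zfp to other genes to -0.55 (exact sign-flip p = 0.031). Without the 10 longest Zfp genes, also chosen then, and with other genes left uncut, that log2 ratio was 0.0596 (exact sign-flip p = 0.34375). The relative change of the highest Zfp423 region ran from -0.0571 to 0.0521 with a library left out. The cause of these changes was not tested. Similar gene copies and the unknown depth limit what heights in clusters can show.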
